A study of Mus musculus with 6 samples.

Results

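Methylation at the start sites of 39 germline genes was compared between splenic germinal centre B cells of Tet2 KO mice and of Tet2 WT mice. The genes were taken from a list of germ cell genes known as targets of promoter methylation. For each gene the CpG positions within 1 kb of the annotated 5′ end, called the start window here, were used where all 6 libraries had at least 10 reads. With at least 3 such positions, 31 of the 39 start windows could be measured, among 13747 of the 21887 protein-coding genes in the gene table. They held 5 to 100 positions each, 937 in all, the CpGs of the 2 DNA strands being counted apart. Of the rest, Spo11 had 2 positions and Syce1, Gtsf1, Piwil1, Piwil2, Piwil4, Stk31 and Tdrd6 had 0.

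DNA was read by enhanced reduced representation bisulfite sequencing, which enriches CpG-dense fragments and reports the share of reads with a protected cytosine. The method does not separate 5-methylcytosine from 5-hydroxymethylcytosine. The 3 Tet2 KO libraries carried a knockout of Tet2, a dioxygenase that oxidises 5-methylcytosine, and the 3 Tet2 WT libraries carried the intact gene. All 6 came from spleens of C57BL/6 mice. The labels do not give the animals' age, the promoter or cell type in which Tet2 was deleted, or whether each library was a separate animal, so the tests speak of variation among these libraries, part of which may be technical. Reads over CpGs, summed over positions, numbered 180397494 to 195582108 in Tet2 KO and 174375503 to 203863392 in Tet2 WT. Inside Tet2 itself, 6 CpG positions had 32 to 168 reads in the Tet2 WT libraries and were listed in no Tet2 KO library. Another 108 positions inside Tet2 were covered in all 6 libraries. How often positions outside Tet2 are listed in Tet2 WT alone is not given here. The start windows of the B-cell genes Cd79b, Pax5 and Ebf1 and of Bcl6, a regulator of germinal centres, had group means between 0% and 0.700%. No T-cell marker window could be measured, and of the myeloid markers Csf1r alone could be (89.1% in Tet2 KO, 81.4% in Tet2 WT).

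Germline genes build the synaptonemal complex, pair and recombine chromosomes, make piRNAs and control RNA in germ cells. In the mouse embryo many of their promoters gain DNA methylation around implantation, after a repressive complex that contains E2F6, MGA and MAX has bound them, and the methyltransferase DNMT3B adds the mark. In somatic cells the methylation is then copied at each division, and loss of it is known to allow transcription of genes such as Dazl, Ddx4 and Mael. RNA was not measured here, so the levels describe the DNA mark and not the activity of the genes.

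The 250 bases before the start site of 6 genes show the range found, from a densely methylated promoter to one free of methylation. They are RefSeq sequences of GRCm38.p6, written 5′ to 3′ on the gene's strand, and capitals mark the CpGs covered in all 6 libraries on at least 1 strand. Ddx4, Hormad1, Slc25a31 and Mael carry many CpGs and were methylated. Smc1b was partly methylated, and Ddx25 was unmethylated. The stretches are Ddx4 (chr13:112652311-112652560, minus strand), Hormad1 (chr3:95559427-95559676, plus strand), Slc25a31 (chr3:40708621-40708870, plus strand), Mael (chr1:166238745-166238994, minus strand), Smc1b (chr15:85131958-85132207, minus strand) and Ddx25 (chr9:35558471-35558720, minus strand).
Ddx4: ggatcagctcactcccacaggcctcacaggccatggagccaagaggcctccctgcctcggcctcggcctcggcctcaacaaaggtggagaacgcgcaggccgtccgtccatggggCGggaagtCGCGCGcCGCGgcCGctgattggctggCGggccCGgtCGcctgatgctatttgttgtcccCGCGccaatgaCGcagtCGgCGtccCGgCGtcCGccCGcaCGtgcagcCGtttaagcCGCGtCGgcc
Hormad1: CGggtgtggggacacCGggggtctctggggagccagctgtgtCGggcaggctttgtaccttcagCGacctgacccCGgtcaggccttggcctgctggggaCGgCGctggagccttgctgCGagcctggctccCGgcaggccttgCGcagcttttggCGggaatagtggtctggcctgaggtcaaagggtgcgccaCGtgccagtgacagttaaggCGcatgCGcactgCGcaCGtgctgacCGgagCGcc
Slc25a31: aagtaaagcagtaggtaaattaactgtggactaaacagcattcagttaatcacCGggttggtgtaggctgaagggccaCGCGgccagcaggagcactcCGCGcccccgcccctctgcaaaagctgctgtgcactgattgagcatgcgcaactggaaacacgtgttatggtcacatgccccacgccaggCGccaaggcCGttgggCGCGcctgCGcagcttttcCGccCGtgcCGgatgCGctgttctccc
Mael: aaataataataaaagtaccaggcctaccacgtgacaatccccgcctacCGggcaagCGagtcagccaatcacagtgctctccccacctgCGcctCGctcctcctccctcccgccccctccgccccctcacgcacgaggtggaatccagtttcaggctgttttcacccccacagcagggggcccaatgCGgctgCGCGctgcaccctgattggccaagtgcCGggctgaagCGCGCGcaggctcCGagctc
Smc1b: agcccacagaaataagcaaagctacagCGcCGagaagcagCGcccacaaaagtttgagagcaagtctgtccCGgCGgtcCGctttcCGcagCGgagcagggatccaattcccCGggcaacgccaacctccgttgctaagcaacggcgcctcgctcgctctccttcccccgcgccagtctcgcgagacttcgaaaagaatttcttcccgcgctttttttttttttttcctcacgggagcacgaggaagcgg
Ddx25: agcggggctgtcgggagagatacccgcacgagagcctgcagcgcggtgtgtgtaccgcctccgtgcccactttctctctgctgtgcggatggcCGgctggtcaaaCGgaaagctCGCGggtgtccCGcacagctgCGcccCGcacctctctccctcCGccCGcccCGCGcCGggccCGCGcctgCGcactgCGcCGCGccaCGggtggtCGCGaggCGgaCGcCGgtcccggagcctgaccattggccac

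The Ddx4 stretch holds 31 CpGs, 24 of them covered, and its methylation was 92.9%, 93.9% and 96.1% in the Tet2 KO libraries, against 94.3%, 96.1% and 96.2% in the Tet2 WT libraries. Hormad1, with 19 CpGs in the stretch, had 90.6%, 91.3% and 94.4% in Tet2 KO, against 91.1%, 88.9% and 91.0% in Tet2 WT. In both promoters the groups overlapped and each library was above 88%. Slc25a31 averaged 94.3% ± 0.75 in Tet2 KO and 95.7% ± 1.78 in Tet2 WT (SD, n = 3 each), and Mael averaged 89.1% ± 1.6 in Tet2 KO and 89.6% ± 4.11 in Tet2 WT. Ddx25 has the most CpGs of the 6, at 34, and the lowest methylation, 0.334% ± 0.289 in Tet2 KO and 0.398% ± 0.237 in Tet2 WT. The 6 sequences were thus not ordered by their CpG number. Smc1b lay between them at 21.5% ± 4.59 in Tet2 KO and 20.8% ± 3.71 in Tet2 WT. Only 9 of its 25 CpGs were covered, all in the part of the stretch farther from the start. They lie past the start of Ribc2, a gene on the other strand, so the CpGs nearest the Smc1b start were not read.

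Most germline start windows were methylated in B cells of both genotypes. Taking the mean of all 6 libraries, 22 of the 31 windows (71.0%) were at 50% or more, against 1307 of 13747 (9.51%) among all genes, and 18 of the 22 were at 80% or more. The list was made of genes known as targets of promoter methylation, so this contrast was set in part by their choice. Dazl, Mei1, Smc1b and Stag3 were partly methylated (20% to under 50%), and Dmc1, Syce2, Tdrd5, Tex15 and Ddx25 were under 20%. The description of the list as methylated promoters thus did not hold for the covered CpGs of these 5 windows. Single libraries of Dmc1 reached 20.3% (Tet2 KO) and 23.4% (Tet2 WT). The strand of Tex15 was not known, so its promoter may not have been read. Over the 22 methylated windows the median level by library was 91.2%, 91.0% and 91.9% in Tet2 KO, against 91.7%, 88.9% and 89.7% in Tet2 WT. The window level of Dazl joins a methylated and an unmethylated stretch, given below. The classes of Mei1 and Stag3 depend on the start used. For positions of intermediate level, DNA from many cells does not show how the mark is spread. An intermediate level in every cell cannot be told apart from a mixture of cells with and without the mark.

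**Figure D1:**
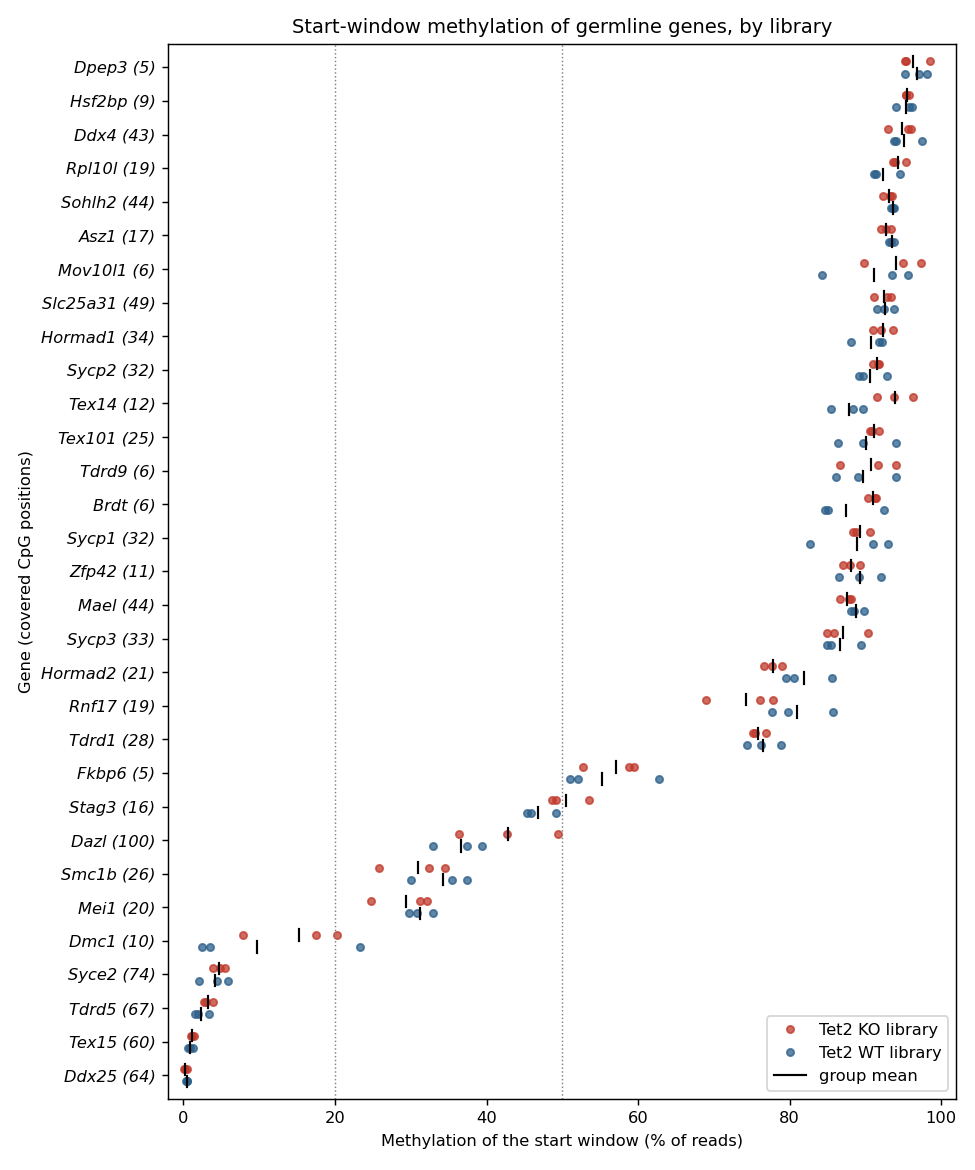
Methylation of 31 germline start windows, in percent of reads, for each Tet2 KO library (red, upper row of each gene) and Tet2 WT library (blue, lower row). Black bars are group means, dotted lines mark 20% and 50%, and the number of covered CpG positions stands after each name. In 22 genes the mean of the 6 libraries lies at 50% or more, and the red and blue points overlap in all genes but Tex14 and Hormad2.

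No germline start window was called different between the genotypes by the test used. Reads were compared in a quasi-binomial model with a dispersion moderated over all windows. A call needed group means 10 or more points apart and a Benjamini-Hochberg adjusted p under 0.05. Of the 31 windows 25 lay between 5% and 95% and were tested, and 0 were called. A window within 10 points of full methylation in Tet2 WT, such as Sohlh2 (93.6%) or Ddx4 (95.1%), could not be called higher. The same limit applies to the tiles and single positions below. Among all 3159 windows tested 0.0633% were called higher and 0% lower in Tet2 KO, so a count of 0 among 25 is also what the background share would give. At an unadjusted p under 0.05 there were 3 members (12.0%), against 11.6% of all tested windows. With limma on the log2 methylated-to-unmethylated ratio 0 of all 3159 windows were called. There 1 member had an unadjusted p under 0.05, against 355 of all windows. The 95% interval of the difference in the model reached 1.65 to 14.1 points on either side in the 25 genes, with a median of 4.71, so differences of a few points were not detectable in most of them.

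The median of Tet2 KO minus Tet2 WT was 0.287 points over the 22 methylated members and 1.54 points over all 1307 methylated windows. The median of the members turned its sign with the libraries used, from -0.444 to 0.651 points when each library was left out in turn. Among windows with at least 10 CpG positions it was -0.189 points over 16 members and 1.47 points over 397 windows. The Tet2 KO mean was the higher one in 12 of the 22 methylated members (54.5%), against 65.4% of all methylated windows. Among windows at 80% or more, which hold 18 of the 22 members, the Tet2 KO mean was the higher one in 61.1% of members and 62.2% of all windows, with medians of 0.397 and 1.02 points. Over the 5 unmethylated members the median difference was 0.570 points, against 0.0433 points over all unmethylated windows. These sets differ in level, with a median Tet2 KO level of 3.21% in the members and 0.350% in all unmethylated windows. With CpGs weighted equally the medians of the difference were -0.0132 points in the members and 0.0553 points in all. All Tet2 KO libraries were above all Tet2 WT libraries in 1 methylated member, Tex14, and below them in 1, Hormad2. Among all methylated windows these shares were 15.1% and 3.06%, and among all covered windows of any level 9.81% and 2.71%. No window of the partly methylated or unmethylated members had separate groups. These figures are a description with no test, since the genes were not drawn at random.

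**Figure D2:**
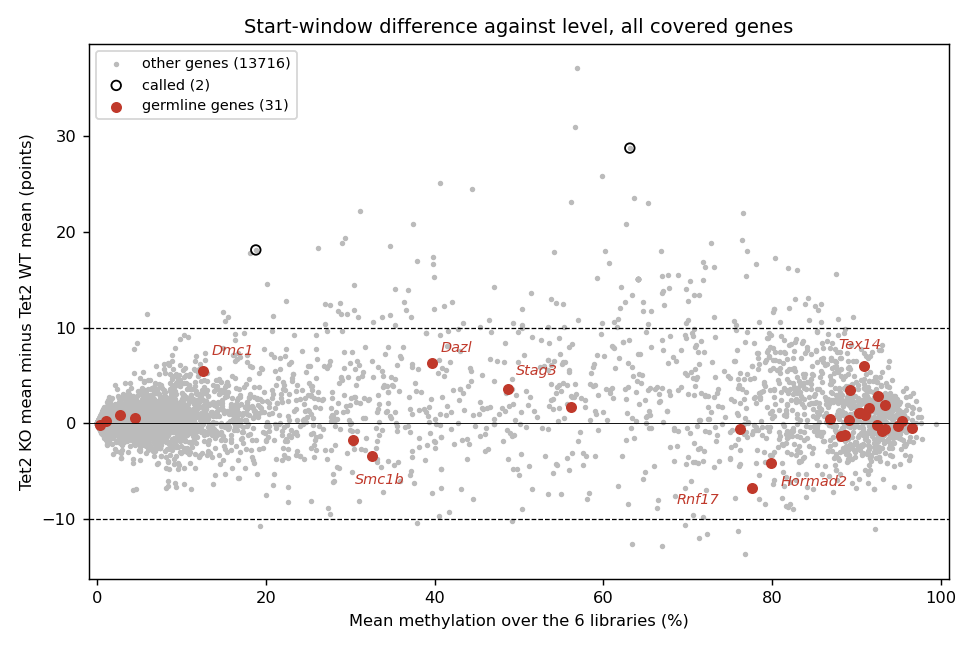
Tet2 KO mean minus Tet2 WT mean of each start window, in percentage points, against the mean level of the 6 libraries in percent. Red points are the 31 germline genes, grey points the other 13716 covered genes, open circles the 2 called windows, and dashed lines mark 10 points. The red points all lie between -6.75 and 6.29 points, while grey points reach 37.1.

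The synaptonemal complex joins paired chromosomes in meiosis, and 3 of its 4 measured genes were methylated. Sycp1, the transverse filament protein, had 89.3% ± 1.21 in Tet2 KO and 88.9% ± 5.47 in Tet2 WT. Sycp2 and Sycp3 form the lateral elements. Sycp2 had 91.5% ± 0.43 in Tet2 KO and 90.6% ± 1.97 in Tet2 WT, and Sycp3 had 87.0% ± 2.92 in Tet2 KO and 86.6% ± 2.50 in Tet2 WT. The intervals of these 3 differences held 0 and reached at most 5.92 points. The difference of Sycp2, 0.92 points, was 3.80 points with at least 20 reads per position and 4.52 points within 500 bp of the 5′ end. Syce2, of the central element, was unmethylated, with 3.89%, 4.83% and 5.46% in the Tet2 KO libraries, against 4.49%, 2.04% and 5.93% in the Tet2 WT libraries. Its methylation was unevenly placed: the 33 positions in the first 500 bp of the gene averaged 0.395% in Tet2 KO and 0.522% in Tet2 WT, and the 38 positions beyond them averaged 8.86% in Tet2 KO and 9.37% in Tet2 WT.

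The axis proteins Hormad1 and Hormad2 and the cohesin subunits Smc1b and Stag3 organise the meiotic chromosome axis. Hormad2 had 76.6%, 77.7% and 78.9% in the Tet2 KO libraries, against 79.6%, 80.6% and 85.6% in the Tet2 WT libraries. All Tet2 KO libraries were the lower ones, by 4.18 points in the means, but the adjusted p was 0.400 (unadjusted 0.0399; quasi-binomial model). Hormad1 had 92.3% ± 1.33 in Tet2 KO and 90.7% ± 2.29 in Tet2 WT, with overlapping libraries. Smc1b had 25.9%, 34.5% and 32.4% in Tet2 KO, against 37.4%, 30.0% and 35.4% in Tet2 WT, and its groups overlapped. The 16 positions upstream of its 5′ end averaged 21.3% in Tet2 KO and 21.8% in Tet2 WT, and the 10 positions inside the gene 58.6% in Tet2 KO and 61.5% in Tet2 WT. The start of Ribc2, on the other strand, lies 103 bp from that of Smc1b and shares this window. The 16 upstream positions lie past the Ribc2 start. Stag3 had 49.2%, 53.6% and 48.6% in Tet2 KO, against 45.4%, 45.8% and 49.2% in Tet2 WT (adjusted p = 0.629). The promoter table places a Stag3 start 7995 bp inside the annotated span, and around that site 32 positions averaged 12.6% ± 3.91 in Tet2 KO and 13.5% ± 2.51 in Tet2 WT, so the class of Stag3 depends on the start used.

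Spo11 cuts DNA to start meiotic recombination, Mei1 is needed for those breaks, Dmc1 carries out strand exchange and Hsf2bp helps bring BRCA2 to meiotic breaks. Hsf2bp, with 9 positions that begin 448 bp inside the gene, had 95.4%, 95.4% and 95.8% in Tet2 KO, against 94.1%, 95.7% and 96.2% in Tet2 WT. Dmc1 varied most between libraries of 1 genotype. It had 20.3%, 7.87% and 17.6% in Tet2 KO, against 2.45%, 3.46% and 23.4% in Tet2 WT. Read counts summed over its 10 positions, 94 to 133 bp inside the gene, were 163 to 356 per library. A read that spans several of them is counted at each. The interval of the Dmc1 difference ran from -10.5 to 17.8 points. One Tet2 WT library was above all Tet2 KO libraries, and the other Tet2 WT libraries were below them. Mei1 had 32.2%, 24.8% and 31.2% in Tet2 KO, against 29.7%, 33.0% and 30.8% in Tet2 WT. The promoter table places the Mei1 start 12402 bp inside the span, and that site was methylated at 91.1% ± 5.60 in Tet2 KO and 93.2% ± 1.34 in Tet2 WT over 9 positions, so the class of Mei1 also depends on the start used. Spo11, below the minimum of 3 positions, had 18.7% in Tet2 KO and 22.6% in Tet2 WT over its 2 positions, and was not tested.

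PIWI proteins use piRNAs to silence transposons in germ cells. The start windows of Piwil1, Piwil2 and Piwil4 and of their partner Gtsf1 were not covered, and 4 piRNA genes that could be measured were all methylated. Asz1, which holds the piRNA machinery at mitochondria, had 92.7% ± 0.66 in Tet2 KO and 93.4% ± 0.34 in Tet2 WT, and Mael, a factor of piRNA production, had 87.5% ± 0.75 in Tet2 KO and 88.8% ± 0.92 in Tet2 WT. Mov10l1, the helicase that hands precursor RNA to the pathway, had 97.3%, 89.9% and 95% in Tet2 KO, against 93.5%, 95.7% and 84.3% in Tet2 WT. Its 6 positions begin 549 bp inside the gene, so its promoter itself was not read. Fkbp6, a co-chaperone of the pathway, had 52.8%, 59.5% and 58.9% in Tet2 KO, against 51.0%, 62.8% and 52.1% in Tet2 WT over 5 positions. The groups of both genes overlapped. At the Fkbp6 start of the promoter table, 1765 bp inside the span, 15 positions averaged 91.5% ± 2.37 in Tet2 KO and 89.3% ± 5.43 in Tet2 WT.

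Tudor domain proteins bind methylated arginines of PIWI proteins. Rnf17 had 76.1%, 77.7% and 69.0% in the Tet2 KO libraries, against 79.8%, 85.7% and 77.6% in the Tet2 WT libraries. The highest Tet2 KO library was just above the lowest Tet2 WT library, and the difference of -6.75 points had an adjusted p of 0.406 (unadjusted 0.0434; quasi-binomial model). The strand of Rnf17 was not in the tables used, and the gene end with more covered CpGs was taken. Tdrd1 had 75.1%, 76.9% and 75.5% in Tet2 KO, against 74.3%, 76.2% and 78.8% in Tet2 WT. Its difference of -0.63 points was 2.91 points with at least 20 reads per position. Tdrd9, a helicase of this family, had 90.8% ± 3.72 in Tet2 KO and 89.7% ± 4.03 in Tet2 WT. Neither gene's groups were separate. Tdrd5 was unmethylated, with 3.97%, 2.73% and 2.95% in Tet2 KO, against 3.42%, 1.97% and 1.49% in Tet2 WT. Its 65 positions more than 499 bp inside the span averaged 0.814% in Tet2 KO and 0.584% in Tet2 WT, and the promoter table places the start there, 956 bp inside the span.

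Among the RNA-binding proteins, the helicase Ddx4 had one of the highest levels and the helicase Ddx25 the lowest. Over its whole window Ddx4 had 94.9% ± 1.59 in Tet2 KO and 95.1% ± 2.10 in Tet2 WT, with an interval of -3.26 to 2.14 points. Ddx25 had 0.489%, 0.0439% and 0.274% in Tet2 KO, against 0.436%, 0.462% and 0.399% in Tet2 WT, over 64 positions. The start of Pus3, a pseudouridine synthase gene on the other strand, lies 90 bp from that of Ddx25.

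Dazl, a translational regulator of germ cells, carried both states in a single window. It had 42.8%, 36.4% and 49.4% in the Tet2 KO libraries, against 37.4%, 32.9% and 39.4% in the Tet2 WT libraries, a difference of 6.29 points with an adjusted p of 0.433 (quasi-binomial model). The groups overlapped, and the order of the libraries was that of their share of reads from the methylated side. Reads before 500 bp into the gene made up 45.0%, 38.0% and 49.8% of the window in Tet2 KO, against 39.1%, 32.1% and 40.4% in Tet2 WT. With each CpG position given equal weight the mean was 43.5% in Tet2 KO and 43.7% in Tet2 WT, a difference of -0.23 points. The 44 positions from -618 to 472 bp averaged 93.0% ± 0.83 in Tet2 KO and 94.0% ± 1.5 in Tet2 WT. The next 9 positions, from 491 to 548 bp, averaged 19.5% ± 3.34 in Tet2 KO and 20.1% ± 5.27 in Tet2 WT. The 47 positions from 598 to 878 bp averaged 1.75% ± 1.67 in Tet2 KO and 1.21% ± 0.87 in Tet2 WT. These stretches were set after the levels were seen. The fall from methylated to unmethylated DNA thus lay at the same place in both genotypes at the resolution of the covered CpGs.

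**Figure D3:**
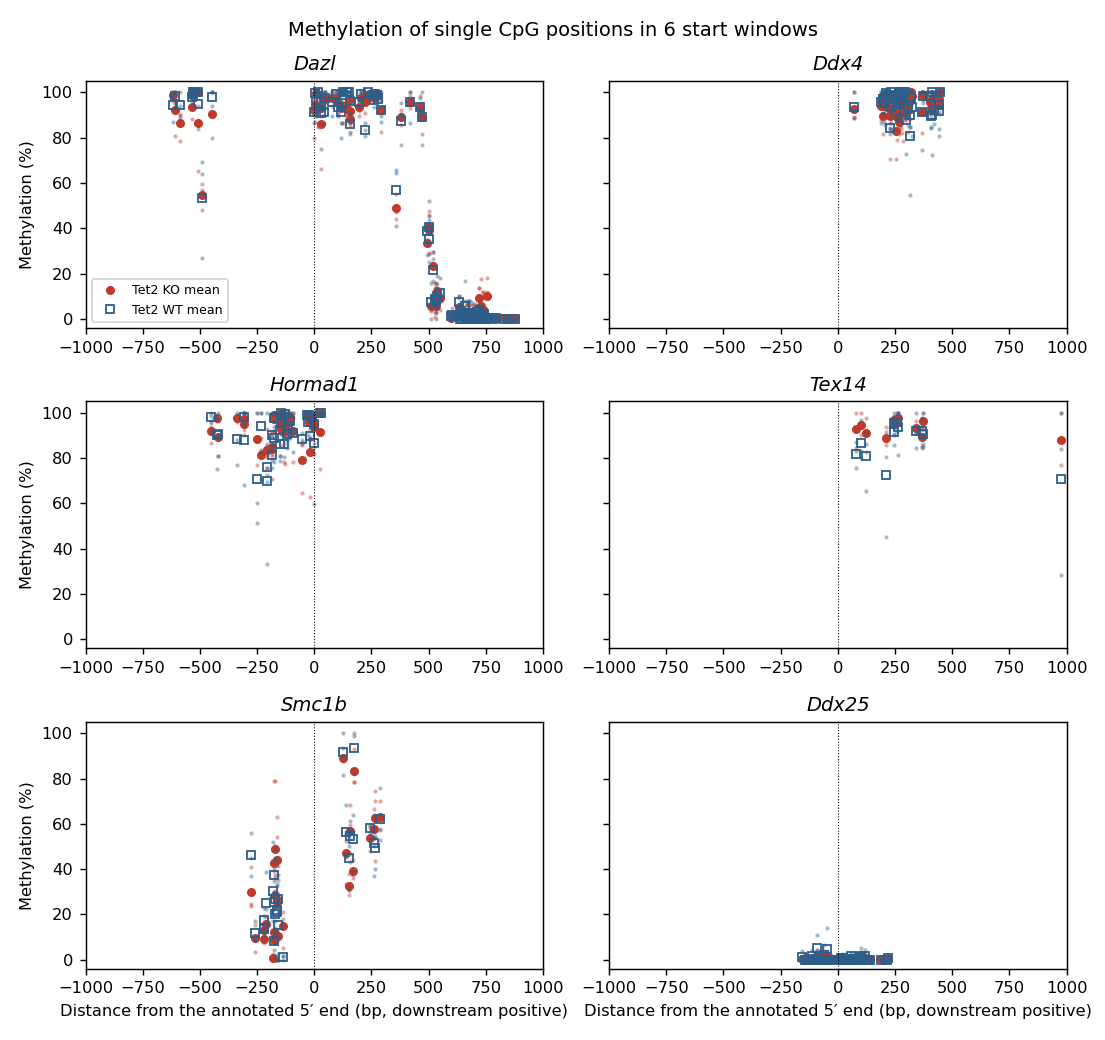
Methylation of single CpG positions, in percent, against distance in bp from the annotated 5′ end (downstream positive) in 6 start windows. Filled red circles are Tet2 KO means, open blue squares Tet2 WT means, and faint dots single libraries. Dazl falls around 500 bp, to 1.75% in Tet2 KO and 1.21% in Tet2 WT on average beyond 598 bp, Ddx4, Hormad1 and Tex14 stay high, Smc1b is intermediate and Ddx25 is near 0%.

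The transcription and chromatin genes were methylated, and their groups overlapped. Brdt, the testis member of the BET bromodomain family, had 91.3%, 91.3% and 90.3% in Tet2 KO, against 92.5%, 85.1% and 84.7% in Tet2 WT (adjusted p = 0.635), from 6 positions that begin 550 bp inside the gene. Sohlh2, a helix-loop-helix factor of spermatogonia and oocytes, had 93.1% ± 0.63 in Tet2 KO and 93.6% ± 0.25 in Tet2 WT. Its interval, from -2.14 to 1.16 points, was the narrowest of the 25 tested genes. Zfp42, a zinc finger gene also known from pluripotent cells, had 88.1% ± 1.12 in Tet2 KO and 89.3% ± 2.75 in Tet2 WT.

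Tex14, needed for the bridges between germ cells, had the smallest p of the germline windows. It had 91.5%, 93.8% and 96.3% in the Tet2 KO libraries, against 85.4%, 88.4% and 89.7% in the Tet2 WT libraries. All Tet2 KO libraries were the higher ones, by 6.00 points in the means, with an interval of 0.97 to 10.4 points and an adjusted p of 0.328 (unadjusted 0.0222; quasi-binomial model). The covered CpGs lie inside Tex14, on the side away from Rad51c, whose start is 59 bp off on the other strand. The surface proteins Tex101 and Dpep3 were methylated, at 91.1% ± 0.57 and 96.3% ± 1.84 in Tet2 KO, against 90.03% ± 3.87 and 96.8% ± 1.47 in Tet2 WT. Tex15, a factor of meiotic repair and transposon silencing, was unmethylated, at 1.11%, 1.02% and 1.44% in Tet2 KO, against 1.26%, 0.574% and 0.824% in Tet2 WT. The strand of Tex15 was not in the tables used, and its 60 positions lie 499 to 986 bp inside the span from the end taken. Rpl10l and Slc25a31 are autosomal genes that stand in for X-linked ones in male germ cells. Rpl10l had 94.3% ± 0.91 in Tet2 KO and 92.4% ± 1.87 in Tet2 WT. Slc25a31 had 91.1%, 92.8% and 93.4% in Tet2 KO, against 91.5%, 92.4% and 93.7% in Tet2 WT, one of the smallest differences among the methylated genes.

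The methylated germline starts were rich in CpGs. RefSeq promoter sequences of 300 bases (250 before and 50 after the start) were given for 34 of the 39 genes. Those of the methylated members held a median of 20 CpGs, against 6 in all 899 methylated starts and 22 in 9534 unmethylated ones. Of the 5833 covered starts with at least 20 CpGs, 79 (1.35%) were methylated. The germline list, made of targets of promoter methylation, supplied 16 of the 5833 and 11 of the 79. Thus 68.8% of its CpG-rich starts were methylated, a share set in part by that choice. In these 11 the median of Tet2 KO minus Tet2 WT was 0.369 points, and in the other 68 methylated CpG-rich starts it was 2.08 points, a description with no test. Dazl and Smc1b, both partly methylated over their windows, had 28 and 29 CpGs. The unmethylated part of the Dazl window lies farther inside the gene than the promoter sequence. Its 44 positions from -618 to 472 bp averaged 93.0% in Tet2 KO and 94.0% in Tet2 WT. Dazl was thus left out of the methylated CpG-rich starts by its window level and not by its promoter. For Fkbp6, Stag3 and Mei1 the promoter sequence lies 1765 to 12402 bp inside the span and outside the window whose level is used here. In Brdt, Hsf2bp, Mov10l1 and Tdrd1, 4 of the 11 methylated CpG-rich members, no covered position lies in the 300 bases, so the level used is that of CpGs elsewhere in the window. For genes outside the list neither point was checked.

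**Figure D4:**
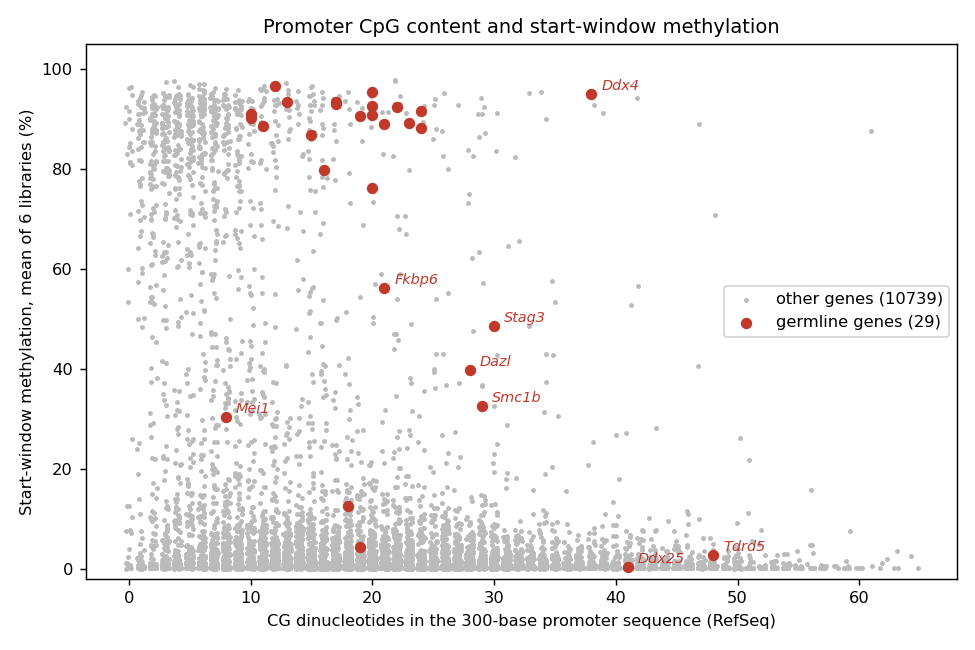
Start-window methylation, as the mean of the 6 libraries in percent, against the number of CG dinucleotides in the 300-base RefSeq promoter. Red points are 29 germline genes and grey points 10739 other genes, the grey ones jittered sideways. Grey points with at least 20 CpGs lie mostly near 0%, where Ddx25 and Tdrd5 also lie, while Ddx4 and 10 other CpG-rich germline genes lie at 50% or more. For Stag3, Mei1 and Fkbp6 sequence and window belong to different starts. The level of Dazl joins a methylated stretch at the start and an unmethylated one farther inside the gene.

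Sequence motifs of the factors named above were searched in the same 300 bases. CACGTG, the E-box read by MGA and MAX, is its own reverse complement and was found in 15 of 34 germline promoters (44.1%), against 7.90% of 17492 promoters. GCGGGAA, a form of the E2F site, was searched on both strands and found in 10 (29.4%), against 5.99%. Both were present in 5 (14.7%), against 0.595%, and no match of one overlapped a match of the other in a germline promoter. Of the 21 methylated germline starts with a sequence, 11 held the E-box and 7 the E2F letters, against 8.01% and 3.67% of all methylated starts. Those hold a median of 6 CpGs, against 20 in the germline ones. In all unmethylated starts, with a median of 22 CpGs, the shares were 10.5% and 8.92%. In the printed Ddx4 promoter the E-box lies at -29 and the E2F letters at -136 bp from the start, and in that of Hormad1 E-boxes lie at -57 and -20 and the E2F letters at -95. The unmethylated Ddx25 also holds an E-box, at 37 bp inside the gene, past the printed stretch. Every E-box and every E2F match contains a CpG, so CpG-rich sequences have more places for both. A match describes letters and is no measure of binding.

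Along the whole genes, 1 kb tiles that overlap the 39 genes or lie within 1 kb of them were tested over 104 covered tiles between 5% and 95%. The tiles at the starts are included, so part of the tiles hold CpGs already tested in the start windows. None was called, against 0.685% of 83114 tiles called higher and 0.00241% called lower in Tet2 KO. At an unadjusted p under 0.05 there were 10 tiles (9.62%), against 11.5% of all tiles. The Tet2 KO mean was the higher one in 61 tiles (58.7%), against 64.0% of all, with a median difference of 0.547 points in the germline tiles and 1.28 in all. The libraries did not overlap in 7 tiles with Tet2 KO higher (6.73%, against 12.7%) and in 2 with Tet2 KO lower (1.92%, against 3.54%). The lowest adjusted p, 0.196, belonged to a tile of Tdrd6, whose start window was not covered (chr17:43629001-43630000, 51 positions). That tile had 28.6%, 23.3% and 25.3% in Tet2 KO, against 32.5%, 29.3% and 29.2% in Tet2 WT. All Tet2 KO libraries were the lower ones there. Inside Tex14 a tile 63488 bp from the 5′ end had 58.6%, 61.0% and 56.0% in Tet2 KO, against 41.6%, 44.2% and 54.3% in Tet2 WT (adjusted p = 0.232), with all Tet2 KO libraries higher. A tile inside Tdrd9, with 3 positions, had 58.3% ± 3.66 in Tet2 KO and 46.0% ± 10.2 in Tet2 WT (adjusted p = 0.290). In Sycp2 neighbouring tiles differed in opposite directions: the one at the start had 92.7% ± 0.74 in Tet2 KO and 88.8% ± 1.47 in Tet2 WT, and the one upstream had 84.5% ± 3.40 in Tet2 KO and 94.4% ± 5.77 in Tet2 WT (adjusted p = 0.306 and 0.360, quasi-binomial model).

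Single CpG positions gave no call either. Of 939 positions in the germline windows 438 were tested and 0 were called, against 0.284% of 525213 positions called higher and 0.0105% called lower in Tet2 KO. At an unadjusted p under 0.05 there were 37 (8.45%), against 8.70% of all. Levels were at 80% or more in both groups at 451 positions and under 20% in both at 329. The libraries of the groups did not overlap at 27 positions with Tet2 KO higher (6.16%, against 8.30% of all) and at 28 with Tet2 KO lower (6.39%, against 4%). The lowest adjusted p, 0.167, was at chr15:85132136 on the reverse strand, 179 bp upstream of Smc1b. It had 0%, 0% and 2.70% in Tet2 KO, against 17.1%, 52.2% and 22.1% in Tet2 WT, from 35 to 92 reads. The cytosine of the same CpG on the other strand had 8.54% in Tet2 KO and 8.06% in Tet2 WT, so the difference was seen on 1 strand. In Hormad1 the position chr3:95559442 had 88.8%, 70.9% and 83.8% in Tet2 KO, against 100%, 100% and 83.0% in Tet2 WT (adjusted p = 0.475). It was the one germline position to pass when a library was left out: without Tet2 WT replicate 3 the levels were 81.2% in Tet2 KO and 100% in Tet2 WT, with an adjusted p of 0.0485.

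Further genes of the same processes gave no call in their start windows. Of all 3159 windows tested 0.0633% were called higher and 0% lower, so counts of 0 are also what the background share would give. Of 30 other meiosis genes 20 were measured, 5 of them methylated and 14 unmethylated, and of 7 tested 0 were called. Among all covered windows 9.51% were methylated and 87.3% unmethylated. Msh4, a meiotic mismatch repair homologue, had 90.6%, 88.1% and 88.2% in Tet2 KO, against 58.0%, 79.0% and 78.0% in Tet2 WT. All Tet2 KO libraries were the higher ones, by 17.3 points in the means, but the adjusted p was 0.143 (unadjusted 0.00228; quasi-binomial model). Among all methylated windows 15.1% had every Tet2 KO library above every Tet2 WT library. Sycp2l, a relative of Sycp2, had 36.0% ± 6.85 in Tet2 KO and 43.3% ± 5.31 in Tet2 WT. Of 16 other piRNA pathway genes 14 were measured and 8 tested, with 0 called. Dnmt3l, a cofactor of germ cell methylation, had 74.9% ± 4.30 in Tet2 KO and 67.5% ± 5.97 in Tet2 WT, and Tex19.1 had 91.5% ± 0.43 in Tet2 KO and 93.9% ± 1.57 in Tet2 WT. Of 20 other germ cell regulators 14 were measured, 9 of them methylated, and 0 of 9 tested were called. Taf7l, a germ cell paralogue of a general transcription factor subunit, had 94.1% ± 1.54 in Tet2 KO and 91.3% ± 1.98 in Tet2 WT. Pou5f1, the pluripotency factor, had 51.6% ± 5.0 in Tet2 KO and 46.9% ± 3.04 in Tet2 WT. The genes of the silencing machinery, among them Dnmt3b, E2f6, Mga and Max, were unmethylated in all 16 measured windows, at 0.0853% to 2.80% as means of the 6 libraries. That class holds most covered windows of any gene (87.3%).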

How the data were processed

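Enhanced reduced representation bisulfite sequencing was read from 3 Tet2 KO and 3 Tet2 WT libraries. Reads were aligned with Bismark to GRCm38, per the submitters' processing notes, which name no version. Per the file headers, each row of a deposited table is a CpG position on 1 strand, with the read count that covers it and the percent read as C or as T. No deposited read count was under 10. Methylated and unmethylated reads were recovered from both and came out whole, within the rounding to 3 decimals, at 100% of positions. Reads of another base (0.0172% to 0.0189%) were left out, and positions covered in all 6 libraries numbered 1463044.

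Levels are summed methylated reads over summed reads, and group means are unweighted. Reads are summed over CpG positions, so a read that spans several CpGs is counted at each. PCR copies cannot be told apart, so read counts overstate precision, and intervals that use them cover counting error and the spread between libraries only. Gene spans were those of RefSeq GRCm38.p6. Strand came from the RefSeq promoter table, in which 152203 of 152203 covered positions fell on a CG. It was known for 34 genes; for Tdrd6, Rnf17, Piwil2, Tex15 and Spo11 the end with more covered CpGs was used. The quasi-binomial model with moderated dispersion (limma's empirical Bayes, in Python 3.11.15 with scipy 1.17.1 and checked on simulated data) was fitted over all features with means of 5% to 95%. Intervals refer to pooled reads of each group.

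Members and lists were chosen with earlier results of these data known. Values by library were given for genes at 20% to under 80%, the 5 with the largest difference and the 2 with the smallest in each class. Outside the list, the 2 genes with the smallest p were named. Alternatives changed coverage, window, gene end, weighting, dispersion, test, pairing and libraries. Some marker genes are not reported here.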

Additional observations from a re-analysis of the deposited data

How the results depend on the processing

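The count of germline start windows called and of germline tiles called was 0 in every alternative run. Limma on log2 ratios and unmoderated dispersion called 0 of all 83114 tiles and 0 of all 3159 windows. The germline count of 0 in these 2 runs therefore carries no information about the germline genes. Over all genes, the windows called were 2 in the fit reported, 31 at the other gene end, 6 with the replicate block, 0 to 8 with a library left out, and 0 with no limit on level, with CpGs weighted equally, with unmoderated dispersion and with limma. The number of single germline CpGs called was 0 to 1 with a library left out and 0 otherwise. Limma and the replicate block called 0 of all 525213 positions. Replicate numbers showed little pairing of the libraries: same-number deviations correlated at 0.0323, 0.0234 and -0.00413, and different-number ones at -0.0407 to 0.0173. With the replicate block germline windows, tiles and CpGs called were all 0, with lowest adjusted p-values of 0.0827, 0.0503 and 0.556. The median difference of methylated germline windows was -0.444 to 0.651 points with a library left out and -0.145 points for windows of 500 bp on either side. At the other gene end it was 1.92 points over 3 windows, and -0.143 points for the 1 unmethylated window there; that end holds other and fewer CpGs. The unmethylated median, 0.570 points in the fit reported, was -0.0132 points with CpGs weighted equally. With the promoter table's start sites, an alternative added after the data were seen, the methylated median was 0.206 points. Of 367 single-gene values recomputed 361 moved by less than the spread between libraries and 6 by more: Sycp2 and Tdrd1 as given above, Dazl (-0.61 points within 500 bp, -0.23 with CpGs weighted equally) and Stag3 (-0.92 at the promoter table's start). With 3 libraries a group, the intervals of Dmc1 and Fkbp6 reach over 10 points on either side, and 8 germline starts had too few CpGs to measure.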
